A study of Mus musculus with 15 samples.

Results

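The comparison described here sets microglia taken 14 days after a dose of ATV:4D9 against microglia taken 1 day after the control antibody ATV:RSV. Its members are all cells of the 3 ATV:4D9 day 14 mice and the 3 ATV:RSV day 1 mice, found by matching the mouse name of each deposited cell to the sample titles, which gave 40598 of 102043 cells and 6 of 15 mice. All mice were male C57BL/6J hTfR KI animals, 3.5 months old, in which the mouse transferrin receptor carries the human apical domain that the antibody vehicle binds. Each mouse received 10 mg/kg once. ATV:4D9 is an activating antibody against mouse TREM2 carried on the antibody transport vehicle (ATV), an Fc that crosses into the brain by binding the transferrin receptor, whereas ATV:RSV carries a control antibody on that Fc. Cells of 1 hemibrain per mouse, cortex and hippocampus by the labels, were enriched with CD45 beads and sequenced from the 3′ end of transcripts with a unique molecular identifier (UMI) on each molecule. Each of 3 batches held 1 mouse of each group. The control was sampled at day 1 only, so that the treatment and the days since injection cannot be told apart at day 14.

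TREM2 is a lipid-sensing receptor of microglia, the resident macrophages of the brain, and it signals through the adaptor encoded by Tyrobp and the kinase encoded by Syk. Signals of this kind feed into the PI3K, AKT and mTOR cascade, which controls growth and protein synthesis. Ribosomes, which make protein, consist of a large and a small subunit, each built of ribosomal RNA and many ribosomal proteins, and the mRNAs of these proteins are known to begin with a run of pyrimidines (a terminal oligopyrimidine, or TOP, tract) through which mTOR controls their translation. Many elongation and initiation factors share this feature, whereas mitochondria have ribosomes of their own with separate proteins.

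Libraries of the 6 mice were of similar depth. The ATV:RSV mice had 38985589 to 46425480 UMIs in 6487 to 7020 cells, and the day 14 mice had 37084525 to 49310133 UMIs in 5933 to 7206 cells. Median UMIs per cell were 5750, 4975 and 5225 in the ATV:RSV mice and 6117, 5370 and 5088 in the day 14 mice of batches 1, 2 and 3, and the groups overlapped. After each cell was thinned to 3385 UMIs, the genes detected in the median cell numbered 1484, 1501 and 1507 at day 14, below 1537, 1529 and 1530 in ATV:RSV (difference -34.5, exact two-sided permutation p = 0.10, the smallest p that 3 mice against 3 allow). All 10 microglia markers were detected, with a summed level of 21210 to 22841 CPM (UMI counts scaled to a library total of 1e+06) in ATV:RSV and 20873 to 21837 CPM at day 14. Among the other cell types, marker sums ranged most widely for ependymal or choroid plexus cells (0.217 to 222 CPM in ATV:RSV, 0.182 to 481 at day 14) and red cells (9.09 to 368 and 11.6 to 31.3 CPM). Of 40414 cell barcodes, 182 occurred in more than 1 of the 6 libraries.

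At day 14, 122 of 14260 genes tested differed from ATV:RSV at an adjusted p under 0.05 (0.856% of genes), 115 higher (0.806%) and 7 lower (0.0491%). The differences were small: 1 of the higher genes and 3 of the lower genes reached 2-fold, and the median of the higher genes was a log2 fold change of 0.28. Ribosomal protein genes made up 63.5% of the higher genes, namely 73 of 115. A further 8 encode translation factors, 3 are host genes of small nucleolar RNAs, and 31 belong to none of these lists. The median log2 fold change over all genes tested was -0.0019. The result depends on the batch block and on the mice used to estimate the spread: 57 genes (43 of them ribosomal protein genes) were called without the block, and with the 6 mice alone 46 (15) were called with the block and 0 without it (limma-voom smallest adjusted p = 0.0892, 740 genes with an unadjusted p under 0.05). Without day 14 replicate 1 the counts were 46 (39), and without ATV:RSV replicate 3 they were 71 (55). With the block over all 15 mice, edgeR called 112 genes and DESeq2 185.

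Of 82 cytosolic ribosomal protein genes tested, 73 rose at day 14, 0 fell and 9 did not pass the test. Their median log2 fold change was 0.27, a 1.21-fold difference, and 81 of 82 were above 0. Of the large subunit 43 of 50 genes rose (median log2 fold change 0.26) and of the small subunit 30 of 32 (0.28), with no test of the difference between subunits. In 65 of the 82 genes the lowest day 14 mouse was above the highest ATV:RSV mouse, which held for 5.29% of all genes tested. The range of the called genes was narrow, from a log2 fold change of 0.18 (Rpl14) to 0.42 (Rpl39). The per-mouse sum of these genes was 124078, 119952 and 117071 CPM in ATV:RSV and 156942, 144255 and 138685 CPM at day 14 in batches 1, 2 and 3. The groups did not overlap, and the mice of batch 1 were the highest of their group in both. Within batches the median log2 difference was 0.33, 0.22 and 0.24.

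Rps24, a protein of the small subunit, had one of the smallest adjusted p-values. It measured 2980, 2965 and 2865 CPM in the ATV:RSV mice and 3778, 3639 and 3539 CPM in the day 14 mice (log2 fold change 0.31, SE 0.0305, adjusted p = 0.000836). Each day 14 mouse was above every control. Rpl23, of the large subunit, measured 2300, 2228 and 2152 CPM in ATV:RSV and 2930, 2734 and 2665 CPM at day 14 (0.32, SE 0.0325, adjusted p = 0.000836). Fau, which encodes a ubiquitin-like protein fused to ribosomal protein S30 and is not in the list because of its name, went from 3994, 3891 and 3743 CPM to 5031, 4724 and 4570 CPM (0.30, SE 0.0319, adjusted p = 0.000836). Rpl30, Rpl32 and Rpl27a completed the 6 smallest adjusted p-values by the naming rule, with log2 fold changes of 0.32, 0.32 and 0.29. The rule took only genes whose groups did not overlap, so the separation in these 6 genes was fixed by the choice. The largest difference was in Rpl39, of the large subunit, whose control mice also differed among themselves. It measured 2159, 1538 and 1675 CPM in ATV:RSV and 2895, 2270 and 2035 CPM at day 14 (0.42, SE 0.0716, adjusted p = 0.00873), so that the lowest day 14 mouse lay below the highest control, and the same was true of 13 of the 73 called genes, Rps27, Rps28 and Rps29 among them.

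**Figure D1:**
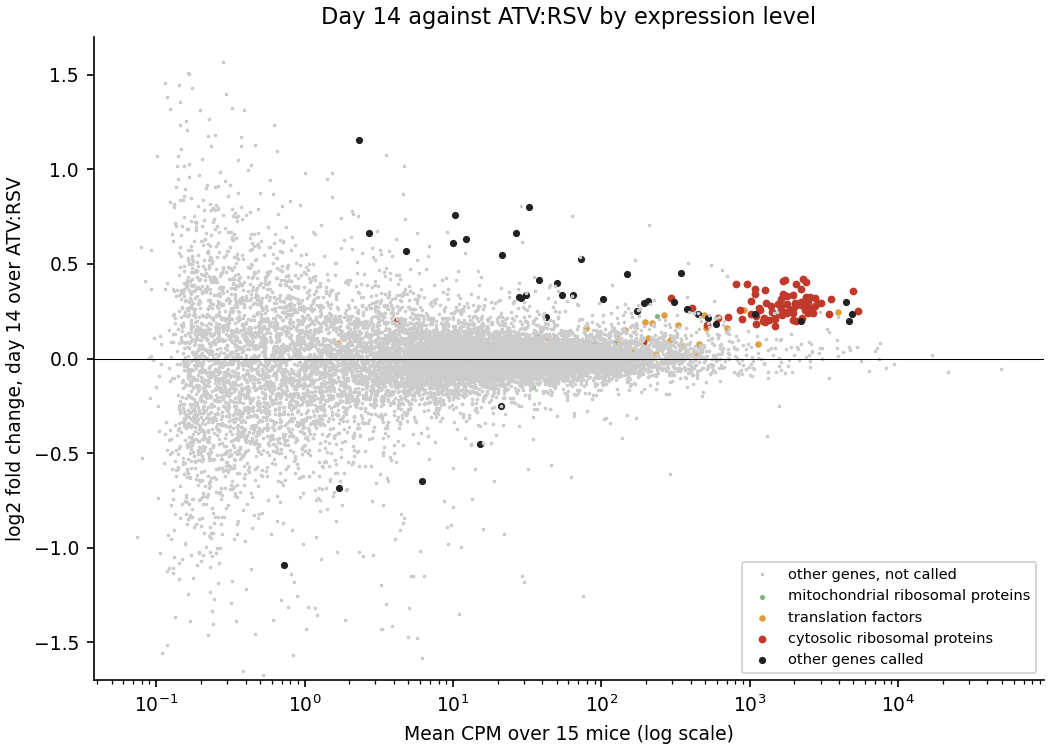
Each point is 1 of 14260 genes, with its mean CPM over 15 mice on a log axis and its log2 fold change of day 14 over ATV:RSV on the vertical axis, which leaves out 73 genes beyond 1.7. Cytosolic ribosomal protein genes (red) sit together above 0 at the high end of expression, with a median of 0.27, while mitochondrial ribosomal protein genes (green) centre on a median of 0.0012.

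The 9 ribosomal protein genes that did not pass the test were Rpl4, Rpl8, Rpl23a, Rpl35, Rpl36al and Rps2, which had log2 fold changes of 0.17 to 0.39, and Rpl7l1 (-0.02), Rps27l (0.09) and Rpl39l (0.20), which are paralogues of the usual subunit genes and had lower levels of 93.5, 189 and 4.19 CPM over the 15 mice. In 5 of the 9 the groups did not overlap. Another 2 genes of the family, Rpl3l and Rpl10l, had too few UMIs to be tested. Ribosomal protein genes have many processed pseudogenes of near-identical sequence, so reads assigned to single members are uncertain.

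High expression narrows the error of a gene and makes small differences testable, so other highly expressed genes were compared. These were 366 genes outside the ribosomal protein and translation factor lists with at least 295 CPM over the 15 mice. That limit was the lowest level of a called ribosomal protein gene, and no upper limit was set, so the levels were not matched. Of the 366 genes, 11 (3.01%) were called, all of them higher, and Fau is 1 of these. The median log2 fold change over all 366 genes was 0.02. Their median SE was 0.0478, against 0.0398 for the ribosomal protein genes. Among the 23 of the 366 genes with up to 1000 bases of annotated exons, 1 was called and the median was 0.08. Of these 23 genes 20 were above 0, and of the 366 genes 228 were. In the ribosomal protein genes the medians at both lengths were close, at 0.29 for 12 genes up to 1000 bases and 0.27 for 70 longer ones, with no test of the difference.

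The rise was also present when each cell was taken by itself. The median cell drew 11.9%, 11.8% and 11.4% of its UMIs from ribosomal protein genes in the ATV:RSV mice and 15.1%, 13.8% and 13.5% in the day 14 mice. The lower quartile moved from 9.04% to 9.08% in the controls to 10.3% to 11.6% at day 14, and the upper quartile from 14.3% to 15.3% to 16.9% to 18.7%. At the 5th percentile the groups overlapped, with 6.45% in day 14 replicate 3 and 6.72% in the ATV:RSV mouse of the same batch. The deposited clusters 0 and 1, which held nearly all cells of both groups, each showed it. In cluster 0 the medians were 11.5% to 12.4% in ATV:RSV and 13.5% to 14.9% at day 14, and in cluster 1 they were 11.3% to 11.3% and 13.5% to 15.4%. A fit on the cells of cluster 0 alone called 68 ribosomal protein genes with a list median of 0.23, and one on cluster 1 called 79 with a median of 0.38. Among cells with 3385 to 5000 UMIs the medians were 10.5% to 10.9% against 12.4% to 13.8%, and among cells with 7000 to 10000 UMIs 13.5% to 14.8% against 14.5% to 17.1%, where the highest control overlapped the lowest day 14 mouse. ATV:RSV replicate 2 held more cells of very low ribosomal protein share than the others, with a 5th percentile of 3.38% against 5.92% and 6.72% in the other controls. Without that mouse the list median was 0.28 and 62 of the genes were called.

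**Figure D2:**
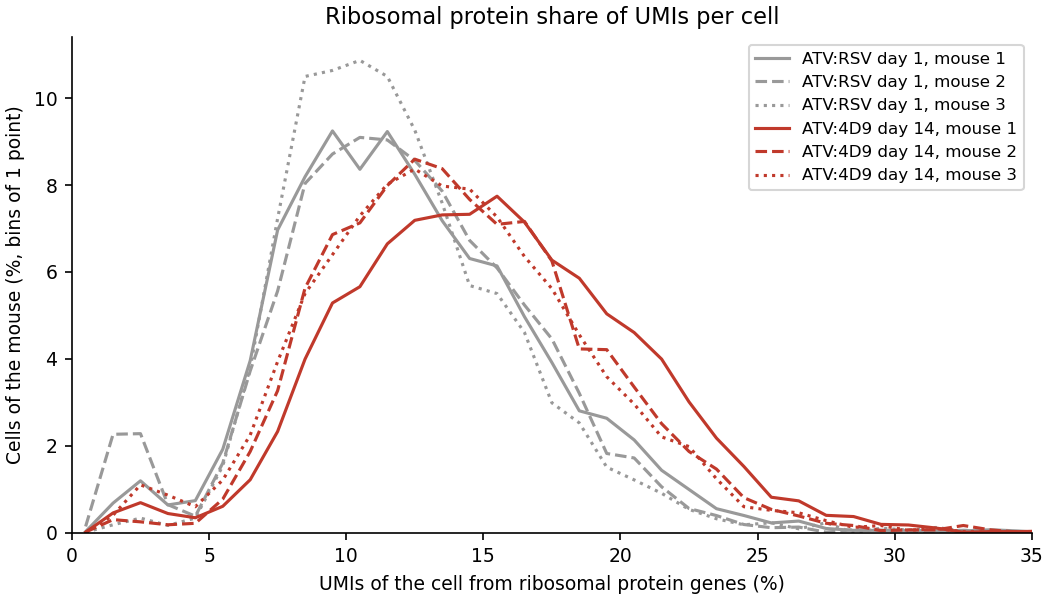
The horizontal axis is the percent of a cell's UMIs that come from the ribosomal protein genes and the vertical axis the percent of a mouse's cells in each bin of 1 point, with 1 line for each of the 6 mice. The medians of the ATV:RSV mice (grey) are 11.4% to 11.9% and those of the day 14 mice (red) 13.5% to 15.1%, with a small second peak at the left in ATV:RSV replicate 2.

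The start sites of these genes are shown because the TOP tract is read from the first bases of the mRNA. The lines below give 30 bases of the transcribed strand, 10 before and 20 from the start site annotated by RefSeq in GRCm38.p6, 5′ to 3′, with the longest run of C and T in capitals. Rps24 (chr14:24490668-24490697, plus strand), Rpl27a (chr7:109519185-109519214, plus), Rps15a (chr7:118116128-118116157, minus) and Fau (chr19:6057937-6057966, plus) are ribosomal protein genes. Rack1 (chr11:48800350-48800379, plus) encodes a protein of the small subunit that also binds kinases, Eef1a1 (chr9:78481705-78481734, minus) the factor that brings aminoacyl-tRNA to the ribosome, and Eif3f (chr7:108934405-108934434, plus) a subunit of an initiation factor. Rpl23 (chr11:97782420-97782449, minus) is shown as a called gene whose annotated start has no such run, and Mrpl52 (chr14:54426899-54426928, plus) as a mitochondrial ribosomal protein gene. Mrpl52 has a run of 7 that begins only at position 10 after the start. Not printed are Rps25, a called ribosomal protein gene with a longest run of 4, and Mrps33, a mitochondrial ribosomal protein gene with a run of 10.
Rps24: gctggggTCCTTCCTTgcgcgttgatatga
Rpl27a: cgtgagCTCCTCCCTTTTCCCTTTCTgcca
Rps15a: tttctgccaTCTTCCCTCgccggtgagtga
Fau: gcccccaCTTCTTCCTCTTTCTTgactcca
Rack1: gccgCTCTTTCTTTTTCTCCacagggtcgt
Eef1a1: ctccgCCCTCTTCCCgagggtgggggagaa
Eif3f: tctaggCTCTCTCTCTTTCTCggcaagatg
Rpl23: gTCCggtcacgtggctgagtgggcggggcc
Mrpl52: gggccacgcccacttccggTTCCCTTgctc

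A run of at least 7 bases of C or T lay in this window in 30 of the 55 called ribosomal protein genes with a RefSeq promoter entry (54.5%), against 2294 of 10636 genes tested (21.6%) and 9 of 66 mitochondrial ribosomal protein genes (13.6%). It was present in 4 of 5 called translation factor genes and in 10 of 26 other genes called higher. The share was not counted in translation factor or ribosomal protein genes that were not called. None of these shares can therefore be tied to the call. On the opposite strand, where such a run reads as A and G, the shares were 5.45% of the called ribosomal protein genes and 22.1% of the genes tested. An annotated start can lie some bases from the start used in microglia, so a window without a run describes those letters only. A run anywhere in the window also need not begin at the first base of the mRNA. Since the tract is a known feature of ribosomal protein mRNAs, these shares describe the gene family and not the change at day 14. Translation and mTOR activity were not measured.

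Other lists of the translation machinery had smaller medians and fewer calls. Of 66 translation factor genes 8 rose (12.1%, against 0.806% of all genes called higher) and 0 fell, with a median log2 fold change of 0.04. These were the elongation factor genes Eef1a1, Eef1b2 and Eef1d, the initiation factor genes Eif3f, Eif3h and Eif3k, Naca, whose product meets nascent chains at the ribosome, and Pabpc1, the poly(A)-binding protein. Eef1a1 measured 3393, 3500 and 3501 CPM in ATV:RSV and 4240, 4045 and 4025 CPM at day 14 (0.24, SE 0.0316, adjusted p = 0.00151), with all day 14 mice higher. Without the block the calls of Naca, Pabpc1, Eif3h, Eif3k and Eef1d were lost (limma-voom adjusted p of 0.0542 to 0.117). Over 23 alternatives the calls were lost in 14 for Eif3h, 12 for Eef1d, 10 for Naca, 9 for Pabpc1 and 9 for Eif3k. Among 18 host genes of small nucleolar RNAs, Gas5 (0.30), Zfas1 (0.34) and Epb41l4aos (0.33) rose (16.7%, against 0.806% of all genes called higher). All 3 calls were lost without the block (limma-voom adjusted p = 0.0563, 0.127 and 0.0637), and that of Zfas1 in 12 of 23 alternatives. Of 47 nucleolar ribosome biogenesis genes, Npm1 alone passed the test (2.13%, against 0.806% of all genes called higher). Its log2 fold change was 0.22 (adjusted p = 0.0267, and 0.0983 without the block by limma-voom), and its call was lost in 11 of 23 alternatives in all. None of the 75 mitochondrial ribosomal protein genes was called, which is near the 0.856% over all genes, and their median was 0.0012. Rack1 (0.23) and Tpt1 (0.23), whose mRNA is a known TOP mRNA, were also higher, and the call of Rack1 was lost without the block (limma-voom adjusted p = 0.0704) and in 8 of 23 alternatives in all. These 4 lists, and Rack1 and Tpt1, were chosen after the values were seen.

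Of days 7, 14 and 28, the ribosomal protein genes had their lowest median at day 28. The median log2 fold change against the same ATV:RSV mice was 0.48 at day 7, 0.27 at day 14 and 0.08 at day 28, and 0 of them were called at day 28, when 2 genes in all were called (0.014% of genes), so that the 0 is near the share over all genes. These comparisons share their 3 controls. In the test of day 14 against day 28, 19 genes were called (0.133% of genes), all higher at day 14. Of these, 18 were ribosomal protein genes and the other was Fau. Neither group compared in this test holds a control mouse. The ATV:RSV mice were still part of the fit, and so entered its estimates of spread and batch. Rps24 measured 3216, 3073 and 3001 CPM at day 28, below each day 14 mouse (log2 difference of day 14 over day 28 of 0.24, adjusted p = 0.0157). The range over the 19 genes was 0.19 to 0.25, and 73 of the 73 genes called at day 14 were higher at day 14 than at day 28, although these genes were picked with the same day 14 mice. The call of the 19 was lost without the batch block (limma-voom 0 genes called, smallest adjusted p = 0.152, 338 genes at an unadjusted p under 0.05) and without any 1 of the 6 mice (0 called, 402 to 819 at an unadjusted p under 0.05), and edgeR called 5.

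**Figure D3:**
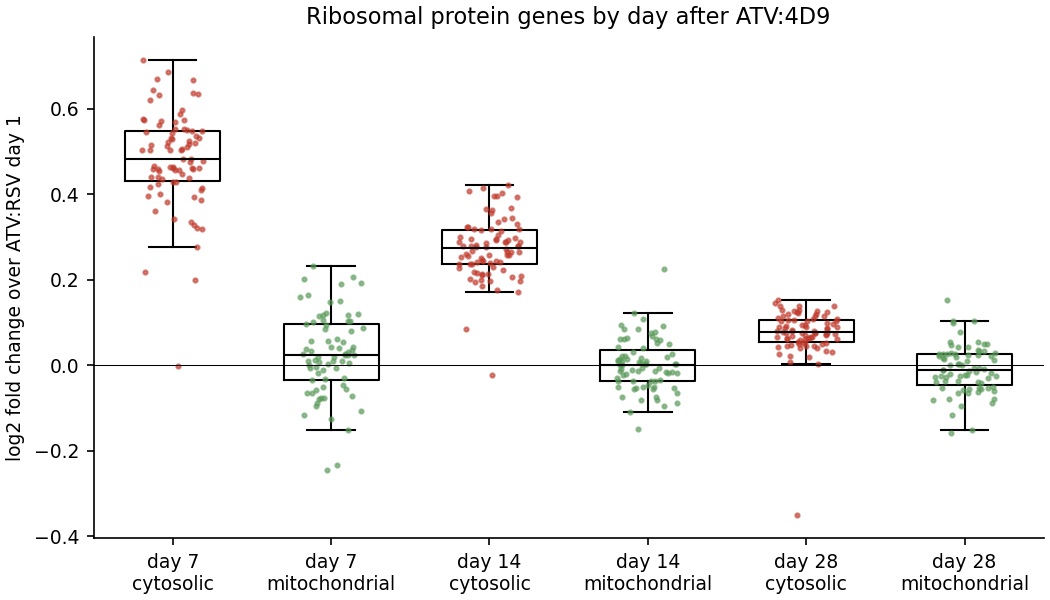
Each point is the log2 fold change over ATV:RSV day 1 of 1 gene at day 7, 14 or 28 after ATV:4D9, with boxes for the quartiles, for 82 cytosolic (red) and 75 mitochondrial (green) ribosomal protein genes. The cytosolic medians are 0.48, 0.27 and 0.08, and all 3 comparisons use the same control mice.

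Outside the translation machinery, the genes with the largest called rises were few and mostly of low or middle level. The 12 highest were picked from genes whose groups did not overlap, so that separation, where given below for them, was fixed by the choice. Haao encodes an enzyme of the kynurenine pathway that leads from tryptophan to NAD (chromosome 17, 83831156 to 83847963). It measured 4.498, 5.55 and 6.01 CPM in ATV:RSV and 9.27, 8.36 and 9.20 CPM at day 14 (log2 fold change 0.76, SE 0.0880, adjusted p = 0.00119). The day 14 mice did not overlap the controls. Haao was the 1 gene called of 12 tested in the kynurenine and NAD list (8.33%, against 0.806% of all genes called higher). Its result was known from earlier work on these data when the list was written, so that share is not independent of it. At day 28 Haao was still called (0.62, adjusted p = 0.0454).

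Igfbp4 encodes a secreted protein that binds insulin-like growth factors (chromosome 11, 99041244 to 99054392). Its values were 18.9, 16.5 and 17.97 CPM in ATV:RSV and 27.6, 27.1 and 30.0 CPM at day 14 (0.66, SE 0.0862, adjusted p = 0.00151), a 1.58-fold difference with no overlap. It was the only gene called of 11 in the insulin-like growth factor list (9.09%, against 0.806% of all genes called higher). Igfbp4 too was known from earlier results when that list was written, so the share adds no separate evidence. The fits of cluster 0 and of cluster 1 gave Igfbp4 the same log2 fold change of 0.67.

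Vcam1 encodes an adhesion molecule of endothelium and activated myeloid cells (chromosome 3, 116109949 to 116129688). It rose from 13.3, 9.67 and 13.3 CPM to 23.7, 17.7 and 21.2 CPM (0.80, SE 0.160, adjusted p = 0.0293). The sum of 8 endothelial markers was 20.4 to 28.1 CPM in ATV:RSV and 18.1 to 20.4 CPM at day 14, below the controls, and without cells carrying markers of another type Vcam1 measured 0.81. The part of endothelial cells in this difference was not tested. Without the block the limma-voom adjusted p of Vcam1 was 0.0702, and its call was lost in 8 of 23 alternatives in all.

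Lag3, an inhibitory receptor of the immunoglobulin family best known from T cells (chromosome 6, 124904361 to 124911705), measured 297, 235 and 274 CPM in ATV:RSV and 396, 355 and 348 CPM at day 14 (0.45, SE 0.0885, adjusted p = 0.0267). The sum of 8 T cell markers was at most 0.491 CPM in ATV:RSV and 1.83 CPM at day 14, and their part in the difference was not tested. The call of Lag3 was lost without the block (limma-voom adjusted p = 0.137) and in 8 of 23 alternatives in all, most of them fits without 1 mouse.

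Cdkn2c, which encodes the CDK4 and CDK6 inhibitor p18 (chromosome 4, 109660876 to 109667189), measured 7.28, 6.97 and 8.42 CPM in ATV:RSV and 11.4, 11.04 and 12.7 CPM at day 14 (0.63, SE 0.0916, adjusted p = 0.00273). Cdkn1b, which encodes the CDK inhibitor p27, had a log2 fold change of 0.33 (adjusted p = 0.0388), and both groups of mice were apart in each gene. Without the block the adjusted p was 0.0586 for Cdkn2c and 0.103 for Cdkn1b, whose call was lost in 11 of 23 alternatives. Bbc3, which encodes the BH3-only protein PUMA, was 0.33 higher (adjusted p = 0.0140) and was the other gene called at day 28 (0.45, adjusted p = 0.0353). Its day 14 call was lost in 7 of 23 alternatives, among them the fits of each cluster alone and the fit without the block (limma-voom adjusted p = 0.187). Cdkn1b and Bbc3 were named after their values were seen.

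Further rises were named by the rule. Treml2, of the TREM receptor family and next to the Trem locus (chromosome 17, 48299498 to 48312533), measured 7.09, 7.89 and 6.70 CPM in ATV:RSV and 11.05, 10.4 and 11.5 CPM at day 14 (0.61, SE 0.101, adjusted p = 0.00697). Glipr1 (chromosome 10, 111985448 to 112002631) rose from 10.2, 11.3 and 11.1 CPM to 13.6, 16.9 and 17.4 CPM (0.55, adjusted p = 0.00159). H2-Oa, a chain of the MHC class II modulator H2-O (chromosome 17, 34092340 to 34095234), measured 43.8, 41.9 and 43.7 CPM in ATV:RSV and 61.6, 56.3 and 52.8 CPM at day 14 (0.40, adjusted p = 0.00159). In each of the 3 genes the groups were apart. Tmsb10, an actin-binding thymosin (chromosome 6, 72957347 to 72958748), was 0.45 higher, Tspan33, a tetraspanin (chromosome 6, 29694222 to 29718559), 0.41, and Kcnj9, a potassium channel (chromosome 1, 172320501 to 172329318), 0.57. The call of Kcnj9 was lost in 13 of 22 alternatives (limma-voom adjusted p = 0.264 without the block), and those of Tmsb10 and Tspan33 in 5 of 23 each. Bcl2a1a, an anti-apoptotic gene (chromosome 9, 88956900 to 88962419), was 0.53 higher, but near-identical copies of it lie in the genome and its reads are uncertain, and its call was lost in 13 of 23 alternatives. Cdca7l, which had the largest log2 fold change (1.15, SE 0.237, adjusted p = 0.0345; chromosome 12, 117804289 to 117878706), was at 0.204, 0.241 and 0.310 CPM in ATV:RSV and 0.465, 0.582 and 0.661 CPM at day 14, and its call was lost in 15 of 21 alternatives.

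**Figure D4:**
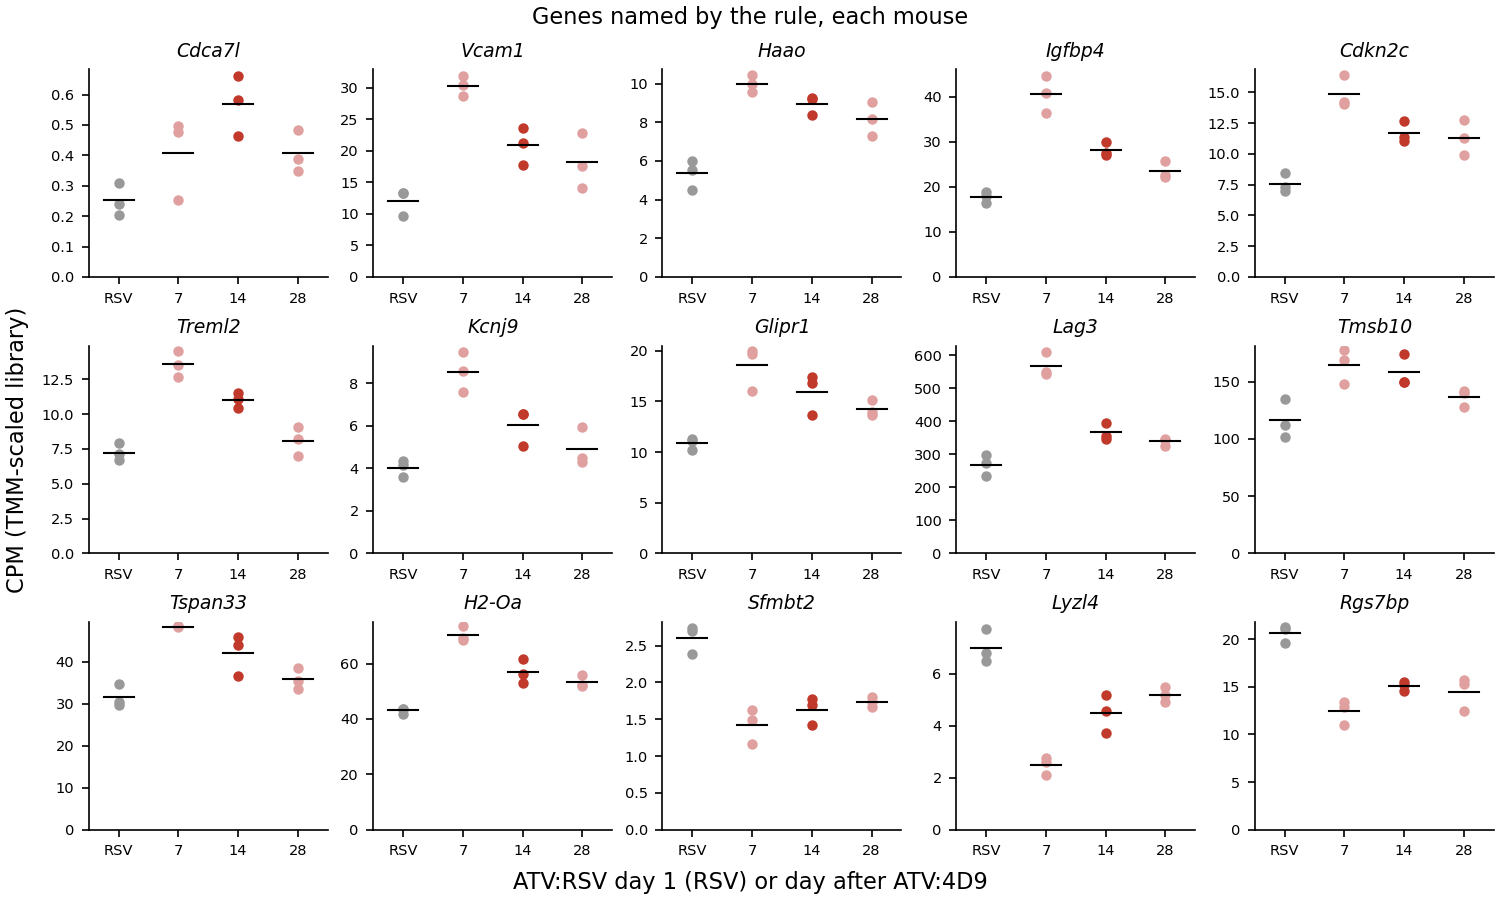
CPM of 15 genes named in the text in each mouse (points) with group means (lines), for ATV:RSV day 1 and ATV:4D9 days 7, 14 and 28, on axes that start at 0. At day 14 (dark red) the 3 mice lie above the controls (grey) in 12 genes, and below them in Sfmbt2, Lyzl4 and Rgs7bp. All but H2-Oa were picked from genes whose groups did not overlap, so this separation was fixed by the choice.

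Of the 7 genes that fell, 3 satisfied the naming rule. Rgs7bp, an anchor of RGS proteins that shut off G protein signals (chromosome 13, 104945904 to 105054930), measured 21.1, 21.3 and 19.6 CPM in ATV:RSV and 14.6, 15.2 and 15.5 CPM at day 14 (-0.45, SE 0.0798, adjusted p = 0.0118). It was the only gene called of 19 in the RGS list (5.26%, against 0.0491% of all genes called lower). Lyzl4, a lysozyme-like gene (chromosome 9, 121577843 to 121642096), went from 6.502, 6.80 and 7.71 CPM to 3.72, 4.58 and 5.20 CPM (-0.65, SE 0.123, adjusted p = 0.0207). Sfmbt2, a Polycomb group gene (chromosome 2, 10370510 to 10595253), went from 2.70, 2.39 and 2.74 CPM to 1.42, 1.77 and 1.695 CPM (-0.69, SE 0.141, adjusted p = 0.0349) and was the 1 gene called of 26 in the Polycomb list (3.85%, against 0.0491%). Rgs7bp and Sfmbt2 were known from earlier results when the RGS and Polycomb lists were written, so the shares of these lists add no separate evidence. The calls were lost in 6 alternatives for Rgs7bp, 7 for Lyzl4 and 13 for Sfmbt2. Named outside the rule, Tmem204 fell slightly (-0.25) and Gm3055 by 1.09 on the log2 scale. Kif4, a mitotic kinesin, had 48 UMIs in the 3 ATV:RSV mice and 4 in the day 14 mice (ratio 12.5, exact 95% counting interval 4.57 to 47.7). Lrr1 had 9 UMIs and 0 UMIs. With the 0 set to a floor of 3 counts over the group the ratio was 3.12. The exact 95% counting interval for 9 against 0 UMIs began lower, at 2.05. Each of the 6 mice compared had fewer than 10 UMIs of Lrr1, so it passed the expression filter only through mice outside the comparison. It is nevertheless counted among the 7 genes. The calls were lost in 10 of 23 alternatives for Tmem204, 15 of 22 for Gm3055, 11 of 20 for Kif4 and 13 of 17 for Lrr1.

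TREM2 and its signalling genes did not pass the test. Trem2 measured 2519, 2550 and 2801 CPM in ATV:RSV and 2500, 2554 and 2579 CPM at day 14 (log2 fold change -0.04, SE 0.0432, adjusted p = 0.879), and the groups overlapped. Tyrobp (0.06) and Syk (-0.06) overlapped too, and 0 of 22 genes of the TREM2 signalling list were called, with a median of -0.02. With 0.856% of all genes called, a 0 in a list of this size is near the share over all genes. Tfrc, the mouse transferrin receptor, had a log2 fold change of 0.10 (adjusted p = 0.884).

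Among 19 homeostatic microglia genes none was called, also near the 0.856% over all genes, with a median of -0.05. In 6 of them every day 14 mouse was below every control, against 5.16% of all genes. P2ry12, the ADP receptor of resting microglia, was at 2073, 2050 and 2032 CPM in ATV:RSV and 1971, 1983 and 1883 CPM at day 14 (-0.08, adjusted p = 0.741). Fcrls, chosen after its values were seen, was at 1716 to 1816 CPM in ATV:RSV and 1464 to 1519 CPM at day 14 (-0.25, adjusted p = 0.0524). Tmem119 (-0.05) and Csf1r (-0.01) overlapped between the groups.

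Of 27 disease-associated microglia genes, Fth1, which encodes the heavy chain of ferritin, was the only one called (3.70%, against 0.856% of all genes). It measured 3375, 3551 and 3701 CPM in ATV:RSV and 3866, 4142 and 4168 CPM at day 14 (0.20, SE 0.0423, adjusted p = 0.0471), and its call was lost in 15 of 23 alternatives, among them the fit without the block (limma-voom adjusted p = 0.188) and each fit without 1 mouse. The list had a median of 0.10. In 6 of its genes all day 14 mice were above the controls and in 2 all were below them, against 5.29% and 5.16% of all genes. Apoe, the main lipid carrier of the brain, was at 503, 553 and 509 CPM in ATV:RSV and 622, 663 and 852 CPM at day 14, with no overlap of the groups, and did not pass the test (0.44, SE 0.170, adjusted p = 0.5005). In the cells of cluster 1 alone, Apoe was called (0.66, adjusted p = 0.0380), as was Axl, a receptor for dying cells (1.47, adjusted p = 0.0150), whose fit over all cells gave 0.26 (adjusted p = 0.850). The cluster 1 fit called 200 of 11989 genes tested. Apoe and Axl were each called in 1 of 23 alternatives, over which Apoe ran from 0.27 to 0.66 and Axl from 0.08 to 1.47.

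The share of oxidative phosphorylation genes called was near that over all genes. Uqcrh, a subunit of respiratory complex III, rose from 329, 318 and 313 CPM to 404, 386 and 362 CPM (0.26, SE 0.0413, adjusted p = 0.00543). It was the 1 gene called of 77 nuclear oxidative phosphorylation genes (1.30%, against 0.856% of all genes tested, with a median of 0.05). Of the 77, 61 were above 0 and 16 below, while 7009 of all 14260 genes were above 0. Within batches 1, 2 and 3 the list median was 0.07, 0.11 and -0.05. No gene was called among 18 glycolytic genes (0.08), 13 mitochondrially encoded genes (0.08), 22 cholesterol synthesis genes (0.04) or 14 lipid efflux and storage genes (0.08). Above 0 were 16 of 18, 13 of 13, 14 of 22 and 8 of 14 genes of these lists. Within batch 3 their medians were -0.03, -0.06, -0.03 and 0.04. Of 28 immediate early genes, which respond to stimulation and to tissue dissociation, Zfp36 alone was called (3.57%, against 0.856% of all genes tested). Its log2 fold change was 0.20 (adjusted p = 0.0303, and 0.0702 without the block by limma-voom). Over the alternatives it ran from 0.0897 to 0.476, and the call was lost in 10 of 23.

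The interferon response and cell cycle lists had negative medians and no gene called, against 0.856% of all genes. The 35 interferon response genes had a median of -0.20, and -0.80, 0.26 and -0.13 within batches 1, 2 and 3. Their summed level was 917, 610 and 675 CPM in ATV:RSV and 666, 724 and 689 CPM at day 14, so ATV:RSV replicate 1 stood above all other mice, and without it the median was 0.03. The 33 cell cycle genes had a median of -0.57, and -1.39, -0.19 and -0.098 within batches 1, 2 and 3, so batch 1 held the largest difference. Their summed level was 406, 366 and 364 CPM in ATV:RSV and 387, 349 and 362 CPM at day 14, and the groups overlapped. In 10 of them the day 14 mice were all below the controls, against 5.16% of all genes. Mki67, the proliferation marker, was at 3.84, 1.13 and 2.77 CPM in ATV:RSV. At day 14 it was at 0.0202, 0.0790 and 0.683 CPM (-4.04, SE 1.12, adjusted p = 0.181). It was called in 2 of 21 alternatives, by DESeq2 (adjusted p = 0.0412) and among genes with a mean of at least 5 CPM (limma-voom adjusted p = 0.0303). Mki67 was below 5 CPM in every mouse compared, so it passed that limit only through mice outside the comparison. Kif4, which was called lower, is not in the list. In the cells of cluster 0 and of cluster 1 the cell cycle medians were 0.08 and -0.0039. Sums over the cells of a mouse cannot tell fewer cycling cells from less RNA per cell. Without thinning, a Mki67 UMI was seen in 0.413%, 0.206% and 0.185% of cells in ATV:RSV and 0.0139%, 0.0337% and 0.112% at day 14. The Mki67 values therefore rest on few cells, and RNA per cycling cell was not tested.

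**Figure D5:**
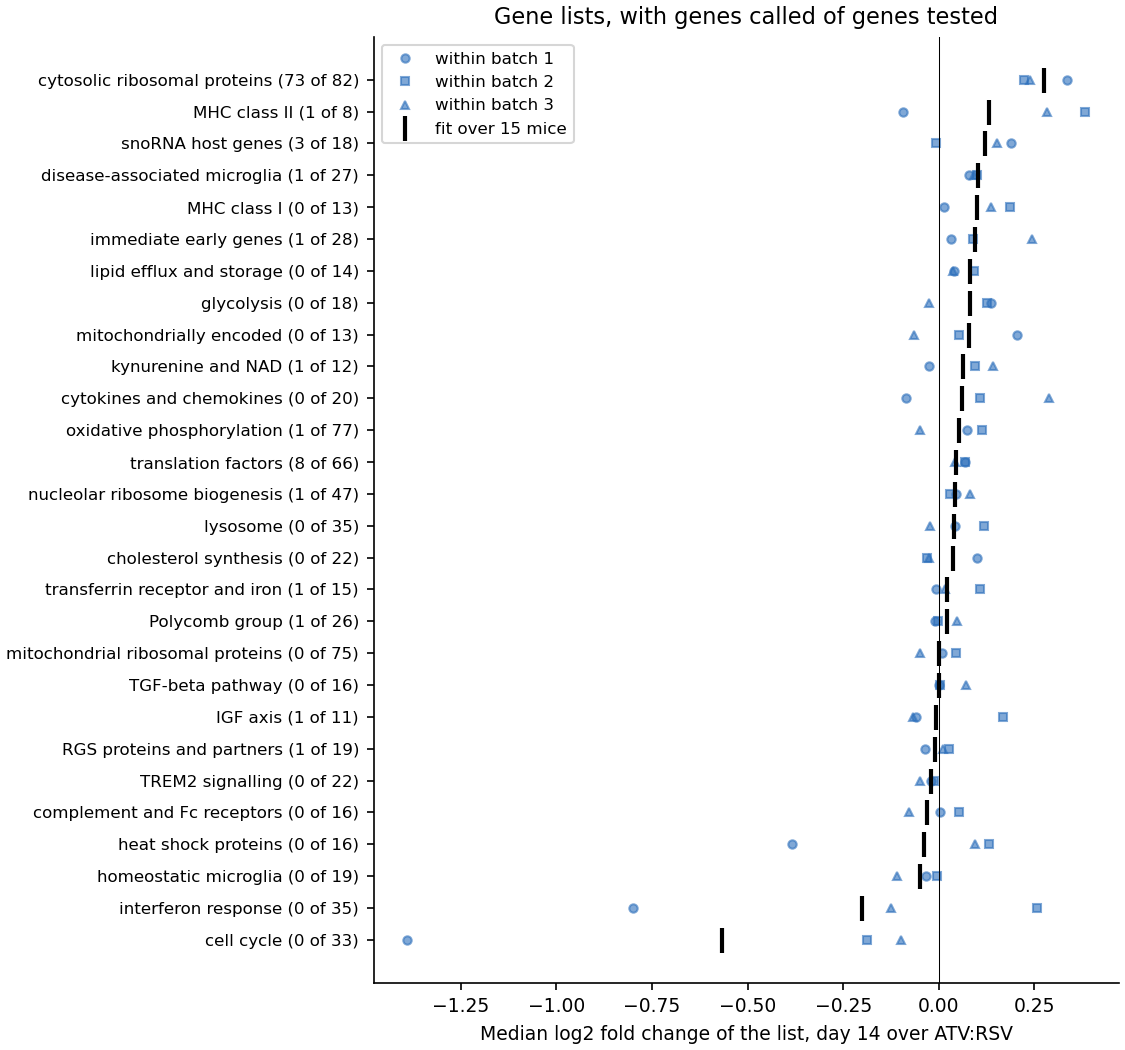
Median log2 fold change of each of 28 gene lists at day 14 over ATV:RSV, from the fit over 15 mice (black bars) and as plain differences within each of 3 batches (blue), with the number of genes called and tested beside each name. The cytosolic ribosomal protein genes lie at 0.27 and above 0 in all 3 batches, while the interferon response and cell cycle lists spread widely between batches.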

How the data were processed

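The deposited values were raw UMI counts for each gene in each cell. The authors mapped reads to mm10 with Cell Ranger (version 4.0.0 in the submitters' processing notes, whereas the study's methods name a later one) and used Seurat for filters and clusters. The deposited cell table held UMI counts, the percent of mitochondrial UMIs and a cluster number per cell. The matrix was checked against that table and was equal in 102043 of 102043 cells. Whether doublets were removed before deposit is not given in the sources used here. No doublet caller was run, and alternatives left out the 5% of cells with most UMIs, or cells holding 3 or more markers of another cell type.

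UMI counts were summed over all cells of each mouse, since the mouse is the replicate. After filterByExpr (count 10, total 15) and TMM scaling, limma-voom modelled group and batch over all 15 mice (R 4.3.3 with edgeR 4.0.16 and limma 3.58.1), with Benjamini-Hochberg adjusted p under 0.05 over 14260 genes. DESeq2 1.42.0 was an alternative. CPM use TMM-scaled library sizes, and n is 3 mice a group. The script was tested on simulated data.

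Batches pair the mice because the labels state that each batch held every condition. Deviations from group means sum to 0 within a group, so their correlations within and between batches are tied and the latter are no separate baseline. These deviations correlated at a mean of 0.0539 across genes for mice of a batch (30 pairs) and -0.0267 for others (60 pairs). For the 2 groups compared these means were -0.0459 within a batch (3 pairs) and 0.0229 between batches (6 pairs), so in these pairs the batch block rests on the labels. No libraries were copies of each other. A further control animal in the labels was not analysed here.

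The members and lists were chosen with earlier results of these data known. The text names genes called, with 10 or more UMIs in every mouse of the 6, groups apart and no predicted-gene symbol: the 12 highest, up to 10 lowest and 6 smallest adjusted p, a list of 16 genes, and called or highest genes of 24 lists. A further 4 lists were added after the values were seen. Gene positions come from the GENCODE M21 annotation of GRCm38 (mm10) and count from 1. The human part of the receptor is not in mm10, so reads of Tfrc may be lost. Intervals and floors cover counting error only.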

Additional observations from a re-analysis of the deposited data

Results flagged for a closer look

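The mice taken 14 and 28 days after ATV:4D9 differed from each other in 19 genes, all higher at day 14: 18 cytosolic ribosomal protein genes and Fau. The log2 differences were 0.19 to 0.25 with 3 mice in each group. The call rests on the batch block and on all 6 mice. Groups of 3 mice are too small for a test of single outlying mice, and none was made.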

How the results depend on the processing

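The 122 calls became 57 without the replicate block (55 higher, 2 lower, 43 ribosomal protein genes), 46 with the 6 mice alone and the block (32, 14, 15) and 0 with the 6 mice and no block (0 in every class by limma-voom, 740 genes with an unadjusted p under 0.05).
DESeq2 called 185 genes (22 lower) and the cells of cluster 1 alone gave 200 (182 higher, 18 lower). Library size alone gave 76 higher and 25 lower genes, 75.2% higher against 94.3%, and shifted the median of all genes to -0.06. Lower genes numbered 17 with sample quality weights, 12 without cells with markers of another type and 11 in the 12 mice without ATV:4D9 day 1, an alternative chosen after seeing the data. TMM without the ribosomal protein genes, chosen in the same way, called 74 of them.
With 1 of the 6 mice left out, 46 to 119 genes were called (46 to 113 higher, 0 to 6 lower), and 39 to 69 ribosomal protein genes. The lowest counts came without day 14 replicate 1 (46) and ATV:RSV replicate 3 (71). The ribosomal protein median stayed between 0.22 and 0.38 over 23 alternatives.
Day 14 against day 28 gave 0 genes without the replicate block, 5 with edgeR and 0 to 0 with a mouse left out.
Leaving out 1 mouse gave differences of day 14 over ATV:RSV in median UMIs per cell of -87.9 to 427, in thinned genes per cell of -39.3 to -27.8, in percent mitochondrial UMIs of -0.104 to 0.15 and in cells per mouse of -222 to 415. These reversed sign without day 14 replicate 1 for UMIs (-87.9) and mitochondrial percent (-0.104), without ATV:RSV replicate 2 for the latter (-0.00975), and for cells without ATV:RSV replicates 1 (125) and 2 (12.2) and day 14 replicate 2 (415.0).
Genes that were not called reversed too: Tfrc when thinned to equal totals (-0.0328), Tmem119 (0.00452, range with 1 mouse left out -0.104 to 0.00452) and Csf1r (0.0113, range -0.0159 to 0.0113) without day 14 replicate 3, and Isg15 without ATV:RSV replicate 1 (0.19, range -0.43 to 0.19) and in cluster 0 (0.097). No cause was tested. The calls of Kif4 and Lrr1 rest on few UMIs (48 and 9 in the ATV:RSV mice, 4 and 0 at day 14).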
